A study of Mus musculus with 38 samples.

Results

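The genes described here were 10 named factors of naive pluripotency, Klf2, Klf4, Klf5, Esrrb, Nanog, Tfcp2l1, Tbx3, Prdm14, Zfp42 and Dppa3, taken by symbol from tables of 78202 genes. All 10 were found and all 10 passed the filter on low values that left 70382 genes tested. The tables came from CUT&RUN, in which an antibody directs a nuclease to cut out the DNA near its target. The targets were LAP2B, an inner nuclear membrane protein used as a marker of the nuclear periphery, lamin B1 (LMNB1), and a secondary antibody with no specific target (IGG). Naive mESC (mouse embryonic stem cells) were grown in 2i + LIF, and epiblast-like cells (EpiLC) were made from them by 48 hours in FGF and activin A. LAP2B was profiled in WT, LBRKO, TKO and QKO cells at both stages, and LMNB1 and IGG in WT cells only, with 3 libraries per group, 36 in all. TKO cells had no lamins (Lmna, Lmnb1 and Lmnb2 all lost). LBRKO cells had deletions in the gene for the lamin B receptor (LBR), and QKO cells had such deletions and no lamins. The authors detected no LBR protein in either, although a deletion they list for the QKO clone is in frame. The WT and TKO lines came from littermates, LBRKO clones were made from the WT line, and the QKO line was 1 clone made from the TKO line, so p-values below measure the spread between libraries of these lines. By the authors' karyotyping, the TKO line carried an extra chromosome 8, with the Y lost in some cells. They found a minority of WT cells with extra chromosomes 6 and 8 or without the Y. In the libraries used here, chromosome 8 stood high in WT cells too, as given below. The reads are DNA, so they could not check an RNA level or the labelled cell state. Genotypes were not checked from the gene values.

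Naive pluripotency is the state of the early epiblast, held in culture by LIF signalling through STAT3 and by inhibition of MEK and GSK3. Its transcription factors bind one another's genes and their own, and most fall silent as cells move towards the primed state, while core factors such as Oct4 and Sox2 stay on. Genes lying at the nuclear lamina are generally weakly transcribed. A gene's LAP2B signal is read as how often its DNA was near the membrane protein, but it also holds background of the kind that IGG measures. It says nothing directly about the gene's RNA.

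Position and base composition differed widely among the 10 genes. They lay on chromosomes 1 (Tfcp2l1 and Prdm14), 4 (Klf4), 5 (Tbx3), 6 (Nanog and Dppa3), 8 (Klf2 and Zfp42), 12 (Esrrb) and 14 (Klf5). Klf2 was the shortest, at chr8:73072726-73075502 over 4 bins of 1 kb, and Esrrb the longest, at chr12:86407887-86568409 over 162 bins (GRCm39). The 250 bases before the start of the annotated canonical transcript are shown for 4 genes whose windows held no annotated exon. These genes span the patterns described below. Klf2 and Esrrb rose in naive QKO cells on both scales used, Klf5 was highest in LBRKO cells, and Zfp42 fell on the spike-in scale. The canonical Esrrb transcript starts at chr12:86468418, inside the span of the gene given above. Sequences are from GRCm39, read 5′ to 3′ on the gene's own strand, and capitals mark each CG dinucleotide (CpG). Windows were chr8:73072476-73072725 (plus strand) for Klf2, chr14:99535836-99536085 (plus) for Klf5, chr12:86468168-86468417 (plus) for Esrrb and chr8:43760153-43760402 (minus) for Zfp42.
Klf2: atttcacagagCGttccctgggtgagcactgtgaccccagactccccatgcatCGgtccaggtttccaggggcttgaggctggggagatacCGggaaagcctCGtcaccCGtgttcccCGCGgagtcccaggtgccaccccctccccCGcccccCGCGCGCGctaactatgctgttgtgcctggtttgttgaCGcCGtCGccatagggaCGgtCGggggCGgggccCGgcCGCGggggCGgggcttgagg
Klf5: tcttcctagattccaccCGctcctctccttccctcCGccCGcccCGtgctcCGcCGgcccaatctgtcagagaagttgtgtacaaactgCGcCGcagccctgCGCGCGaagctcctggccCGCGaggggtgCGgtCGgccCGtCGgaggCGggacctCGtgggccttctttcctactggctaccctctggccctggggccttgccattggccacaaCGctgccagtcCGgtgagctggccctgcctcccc
Esrrb: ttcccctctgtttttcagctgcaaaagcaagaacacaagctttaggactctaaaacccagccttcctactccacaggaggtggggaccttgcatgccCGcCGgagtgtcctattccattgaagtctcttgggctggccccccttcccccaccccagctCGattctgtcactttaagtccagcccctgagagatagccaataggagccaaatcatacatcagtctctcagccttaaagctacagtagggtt
Zfp42: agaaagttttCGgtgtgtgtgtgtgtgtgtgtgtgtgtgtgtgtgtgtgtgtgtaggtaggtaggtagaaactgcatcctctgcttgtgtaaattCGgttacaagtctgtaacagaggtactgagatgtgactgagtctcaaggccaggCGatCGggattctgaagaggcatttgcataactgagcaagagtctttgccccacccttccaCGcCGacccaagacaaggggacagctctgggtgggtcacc
The Klf2 and Klf5 windows held 22 and 21 CpGs, and those of Esrrb and Zfp42 held 3 and 6, where the median of 21683 protein-coding genes was 8. In the windows not shown, Klf4 had 32 CpGs, Tbx3 24, Tfcp2l1 13, Prdm14 11, Dppa3 6 and Nanog 3. CpG-rich and CpG-poor starts therefore both occurred among genes that rose. Several short motifs were searched on both strands, with no overlap between their letters required or removed. AAGGTCA, bound by ESRRB, stood in the Prdm14 window and in 3.92% of all windows. GGGNGTGG, of the kind bound by KLF proteins, stood in those of Klf2, Nanog and Tfcp2l1 and in 16.9% of all. ATGCAAAT, the octamer, stood in the Zfp42 window and in 1.49% of all. Over the gene body, Klf2 was 61.0% GC, the 98.6th percentile of genes, Klf4 52.9% and Tbx3 50.1%, and the other genes lay between 42.8% (Zfp42) and 48.9% (Esrrb), around the median gene's 45.3%.

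The deposited value of a gene is a read density scaled to added yeast DNA, and is called the spike-in scale here. It was taken to add up all 1 kb bins overlapping a gene, which no source states and which was inferred from the values. All 343 sets of genes lying in 1 shared bin had equal values, which cannot tell a sum from a mean. Values in every library also lay on whole-read steps, as sums of bins would. Values per bin rest on that inference and on the annotated span of each gene. The same value divided by that library's median gene is called the relative scale, on which 1 is the median gene. Changes are log2 differences from limma with Benjamini-Hochberg adjusted p over all 70382 genes, and a change is said to pass at an adjusted p under 0.05. Libraries held between 12028659 and 45689196 reads over the gene table, and the median gene held 36 to 135 reads. The smallest count for any of the 10 genes in a LAP2B library was 28 reads (Klf2, WT naive replicate 2), so short genes were measured less precisely than Esrrb. Reads were not assigned by strand, and 7 of the 10 genes shared a bin with another annotated gene (Klf2 with Eps15l1, Tbx3 with its antisense transcripts, Dppa3 with Gdf3), while Klf5, Prdm14 and Zfp42 shared none. Every mutant was compared with the same WT libraries, so the 3 comparisons at a stage are not independent. Cells were profiled in bulk, so fewer cells with contact and less contact per cell cannot be told apart.

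In naive QKO cells, all 10 naive factor genes carried more LAP2B signal relative to the median gene than in WT cells. Over all genes tested 33.2% rose and 42.3% fell in this comparison, and the median gene changed by -0.22, whereas the median of the 10 was 1.17. Klf2 rose most (log2 change 2.91 ± 0.23 SE), followed by Tbx3 (2.09 ± 0.17), Esrrb (1.76 ± 0.09), Tfcp2l1 (1.38 ± 0.11), Prdm14 (1.29 ± 0.15) and Klf5 (1.06 ± 0.15). Klf4, Nanog, Dppa3 and Zfp42 rose by 0.83, 0.75, 0.71 and 0.57. The 3 QKO libraries lay above the 3 WT libraries for all 10 genes, as they did for 33.5% of genes tested. Replicate 2 was the lowest QKO library for 9 of the 10 genes, the exception being Klf4.

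The Klf genes encode zinc-finger factors that partly replace one another in keeping cells naive. On the relative scale Klf2 and Klf4 passed in TKO and not in LBRKO naive cells, and Klf5 passed in both. Klf2, an ERK-sensitive factor, had relative signals of 1.01, 0.636 and 1.06 in WT, 0.846, 1.56 and 1.43 in the LBRKO libraries, 2.76, 3.38 and 2.75 in TKO, and 8.49, 5.37 and 8.56 in QKO. WT and LBRKO overlapped, TKO lay above both, and QKO above all. Klf4, a reprogramming factor downstream of STAT3, had 1.25, 1.32 and 0.769 in WT, 0.837, 1.10 and 0.819 in the LBRKO libraries, 2.11, 2.3 and 1.73 in TKO, and 1.79, 2.07 and 2.21 in QKO. Its TKO and QKO libraries overlapped each other and lay above the other groups. Klf5, which also acts in the trophectoderm, had 4.00, 5.00 and 3.54 in WT, 13.1, 8.33 and 13.9 in the LBRKO libraries, 7.97, 7.55 and 7.72 in TKO, and 9.84, 7.54 and 8.94 in QKO. Klf5 was thus highest in LBRKO cells, although LBRKO replicate 2 lay within the QKO range.

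Esrrb, Nanog, Tfcp2l1, Tbx3 and Prdm14 encode DNA-binding regulators of the naive network. Esrrb, an orphan nuclear receptor repressed by TCF7L1 until GSK3 is inhibited, had relative signals of 22.7, 21.6 and 25.9 in WT, 36.2, 39.6 and 39.8 in the LBRKO libraries, 42.4, 48.5 and 43.7 in TKO, and 87.1, 69.1 and 82.2 in QKO. Its 4 genotypes formed 4 ranges without overlap, rising in that order. Tbx3, a T-box factor, had 2.61, 1.98 and 3.27 in WT, 3.63, 3.93 and 4.00 in the LBRKO libraries, 4.61, 4.00 and 4.30 in TKO, and 12.4, 8.78 and 13.1 in QKO. Tbx3 thus rose modestly in either single loss and far more in QKO. Tfcp2l1, a target of STAT3, had 11.8, 11.8 and 11.2 in WT, 16.5, 16.0 and 17.2 in the LBRKO libraries, 26.5, 19.9 and 25.1 in TKO, and 33.3, 26.1 and 32.4 in QKO. Prdm14, which restrains FGF signalling and DNA methylation, had 3.89, 3.00 and 2.44 in WT, 5.95, 4.80 and 5.81 in the LBRKO libraries, 6.43, 7.22 and 5.87 in TKO, and 8.98, 6.25 and 7.90 in QKO. For Tfcp2l1 and Prdm14 the low end of the QKO range overlapped the TKO range. Nanog, the homeodomain factor, had 3.96, 4.77 and 4.23 in WT, 7.04, 5.77 and 6.28 in the LBRKO libraries, 5.42, 4.38 and 5.66 in TKO, and 8.41, 5.39 and 8.57 in QKO. Nanog was the one gene of the 10 whose TKO and WT libraries overlapped.

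Zfp42 (Rex1) and Dppa3 (Stella, a maternal factor that protects the egg-derived genome from demethylation) are standard markers of the naive state more than drivers of it. Zfp42 had relative signals of 4.60, 4.34 and 5.31 in WT, 5.35, 4.75 and 5.35 in the LBRKO libraries, 9.74, 8.40 and 9.96 in TKO, and 8.28, 5.76 and 7.49 in QKO. Zfp42 was thus highest in TKO cells, and its QKO libraries lay below all TKO libraries. Dppa3 had 1.65, 1.43 and 1.85 in WT, 2.75, 3.11 and 2.88 in the LBRKO libraries, 2.87, 2.38 and 2.84 in TKO, and 2.97, 2.48 and 2.81 in QKO. Its 3 mutant groups overlapped and all lay above WT. Nanog and Dppa3 lie near each other on chromosome 6 and share most of their neighbours, so they are not separate observations of that region. Both have processed copies elsewhere in the genome. Per the authors' methods only primary alignments were kept, so a read matching several places counted at 1 of them.

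**Figure D1:**
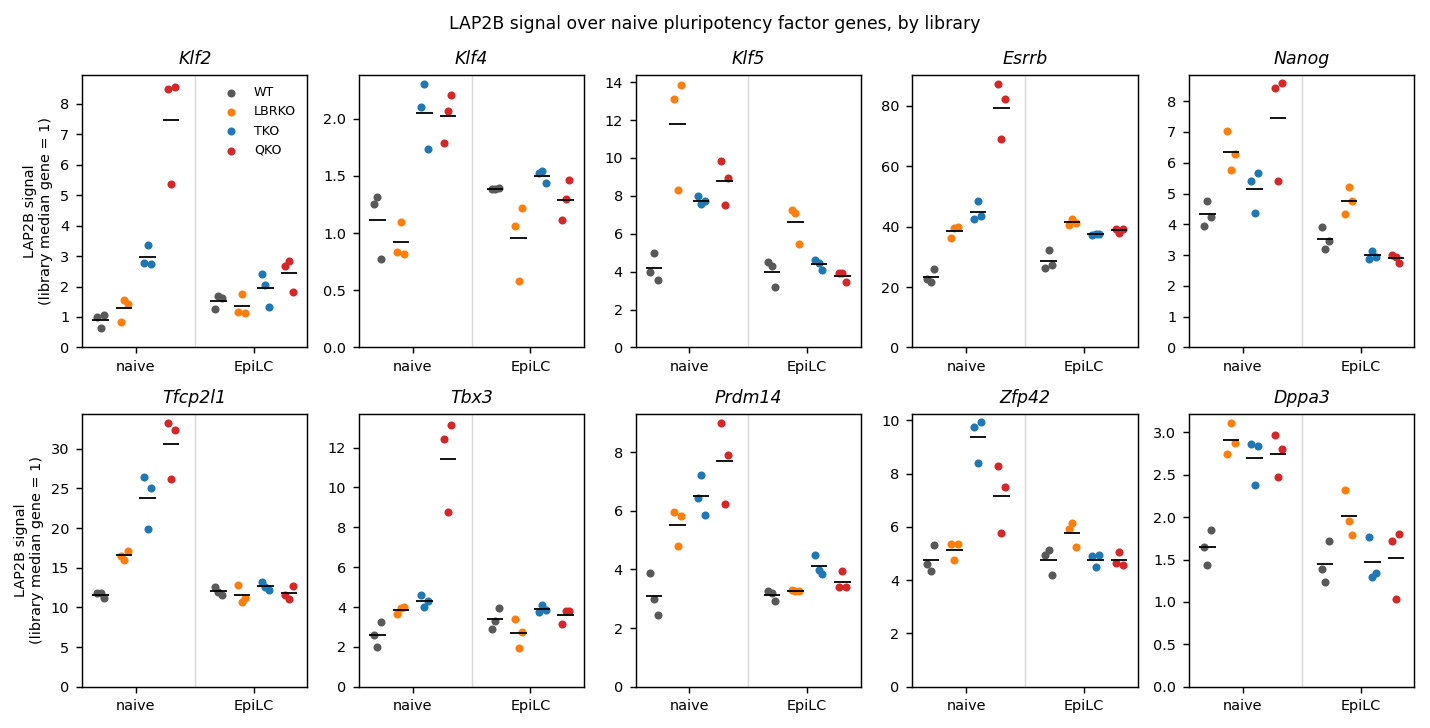
Relative LAP2B signal (gene signal divided by the library's median gene, linear axis) of the 10 genes in each library, by genotype and stage, with 3 points per group. In naive cells the QKO points lie above the WT points for all 10 genes, and Klf5 is highest in LBRKO.

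On the relative scale, loss of the lamins alone raised 9 of the 10 genes in naive cells, against 21.8% of genes tested. The median over the 10 was 0.91 against -0.11 over all genes. Klf2 rose by 1.63, Prdm14 by 1.06, Tfcp2l1 by 1.02, Zfp42 by 0.97, Esrrb by 0.94, Klf5 by 0.89, Klf4 by 0.85, Tbx3 by 0.72 and Dppa3 by 0.68, with adjusted p between 1.1e-11 (Esrrb) and 0.0034 (Dppa3). Nanog did not pass (0.24, 95% interval -0.06 to 0.55, adjusted p = 0.18). Loss of LBR alone raised 7 of the 10, against 28.9% of genes tested, with medians of 0.56 over the 10 and 0.05 over all genes. Klf5 rose most (1.45, adjusted p = 1.7e-11), then Prdm14 (0.83), Dppa3 (0.80), Esrrb (0.72), Tbx3 (0.57), Nanog (0.55) and Tfcp2l1 (0.51). Klf2 (0.45, adjusted p = 0.091), Klf4 (-0.23, 0.40) and Zfp42 (0.12, 0.47) did not pass. None of the 10 passed as lower in any naive mutant on this scale, where 27.6% (LBRKO), 27.5% (TKO) and 42.3% (QKO) of genes tested did. Dividing each library by its mean gene instead of its median gene added 0.12 (LBRKO), 0.33 (TKO) and 0.27 (QKO) to every change, and moved the share of TKO calls that were higher from 44.2% to 69.6%.

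**Figure D2:**
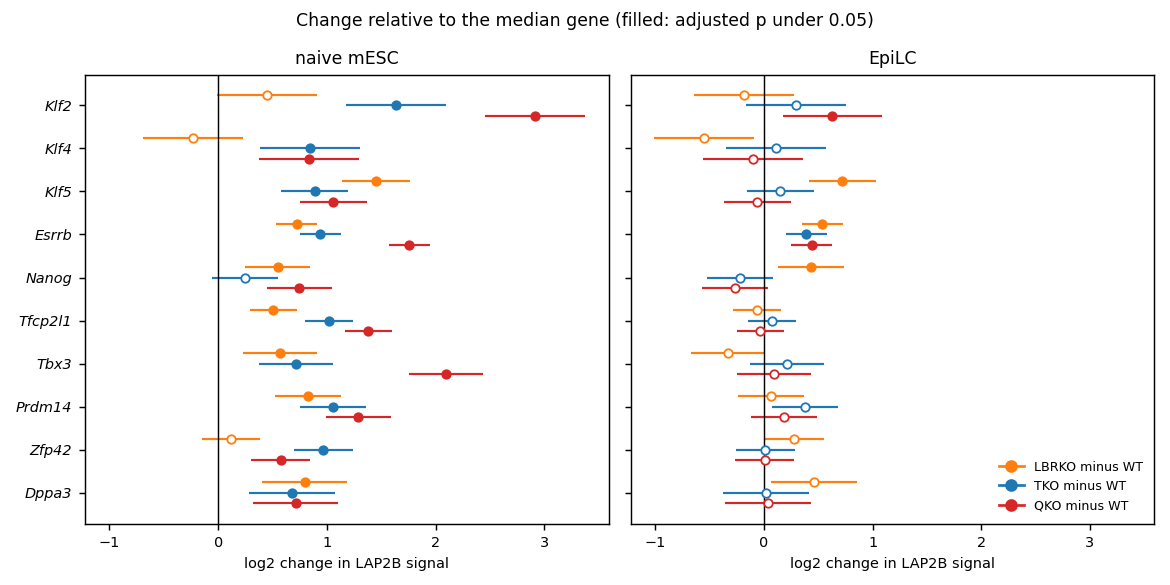
Log2 change in relative LAP2B signal against WT for each gene, mutant and stage, with bars for 95% intervals and filled points where the adjusted p was under 0.05. All 10 QKO points in naive cells are filled, while 2 of 10 are in EpiLC.

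By the authors' karyotyping, chromosomes 6 and 8 were present in abnormal number in some of these cells, and their levels stand beside these changes. On chromosome 6, which holds Nanog and Dppa3, the median gene's relative signal per bin in naive cells was 1.32 in WT, 1.53 in the LBRKO libraries, 1.09 in TKO, and 0.912 in QKO. When each library was divided by the median gene of the same chromosome, Nanog no longer passed in naive or EpiLC LBRKO cells. Klf4, which lies on chromosome 4, no longer passed in naive QKO cells. The naive chromosome 4 medians were 0.94, 0.989, 1.085 and 1.36 in WT, LBRKO, TKO and QKO. On chromosome 8, which holds Klf2 and Zfp42, the medians were 1.44, 1.49, 1.54 and 1.57 in the same order. In WT IGG libraries the chromosome 8 median was 1.52 in naive cells and 1.53 in EpiLC. For the other chromosomes holding these genes, naive IGG medians ran from 0.998 (chromosome 1) to 1.14 (chromosome 6). Chromosome 8 thus stood high in WT cells as well as in the mutants. Divided by the median gene of chromosome 8, Klf2 changed by 2.69 and Zfp42 by 0.47 in naive QKO cells, and by 1.44 and 0.86 in TKO cells, and all 4 values passed. The part of chromosome number in these results was not tested otherwise.

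Set against each other on the relative scale, the mutants ordered the genes differently. QKO exceeded TKO at Tbx3 (1.37), Klf2 (1.28), Esrrb (0.82), Nanog (0.50) and Tfcp2l1 (0.36), and lay below it at Zfp42 (-0.39, adjusted p = 0.012), where 26.4% of genes tested were higher and 27.1% lower. At Klf4 (-0.01, 95% interval -0.47 to 0.45), Klf5 (0.17, -0.14 to 0.48), Prdm14 (0.23, -0.07 to 0.53) and Dppa3 (0.03, -0.36 to 0.42) the 2 genotypes were not separated. QKO exceeded LBRKO at 7 genes, from 0.46 (Prdm14 and Zfp42) to 2.47 (Klf2), and lay below it at Klf5 (-0.39, adjusted p = 0.028), where 21.9% of genes were higher and 31.4% lower. TKO exceeded LBRKO at Klf2 (1.19), Klf4 (1.08), Zfp42 (0.85) and Tfcp2l1 (0.51) and lay below it at Klf5 (-0.56, adjusted p = 0.0028), where 15.9% were higher and 21.5% lower. Klf5 thus had more relative signal after LBR loss than after lamin loss, and Klf2, Klf4, Tfcp2l1 and Zfp42 had more after lamin loss. Mutants were not tested against each other on the spike-in scale, where some orders differed. Means there in LBRKO, TKO and QKO cells were 46.4, 37.4 and 31.7 at Tfcp2l1 and 14.4, 14.9 and 7.47 at Zfp42. They were 15.4, 10.7 and 8.02 at Prdm14, 17.6, 8.13 and 7.79 at Nanog, and 108, 73.3 and 82.4 at Esrrb. Others were Klf2 (3.67, 4.88 and 7.81), Klf4 (2.56, 3.35 and 2.08) and Klf5 (33.0, 12.4 and 9.11). Tbx3 had 10.8, 6.86 and 11.9, and Dppa3 8.16, 4.27 and 2.85. The share of calls that were higher moved from 41.1% to 54.0% in edgeR (51.2% in DESeq2) for QKO against LBRKO, and from 42.5% to 63.3% with mean-gene scaling for TKO against LBRKO.

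On the spike-in scale 1 of the 10 genes passed as higher in naive TKO cells and 3 in QKO cells. This deposited value multiplies the yeast factor by RPKM, which already divides by sequencing depth, so it is not a measure of the total amount of DNA released, and the results under both ways of applying the factor are given. The median gene changed by 0.21 in naive LBRKO, -0.64 in TKO and -1.23 in QKO cells on this scale. LBRKO again raised 7 of the 10 genes, against 28.2% of genes tested, led by Klf5 (1.64), Prdm14 (1.01), Dppa3 (0.98) and Esrrb (0.91). The LBRKO count was 4 of 10 when WT replicate 1 or LBRKO replicate 3 was left out. TKO raised Klf2 alone (1.05, adjusted p = 0.0015), against 2.43% of genes higher and 47.4% lower. The other 9 genes were between -0.37 (Nanog) and 0.45 (Prdm14) in TKO, and none of them passed. QKO raised Klf2 (1.72, adjusted p = 2.4e-08), Tbx3 (0.87, 0.0018) and Esrrb (0.52, 0.032), against 10.2% of genes higher, and lowered Zfp42 (-0.64, 0.016), against 65.3% lower. With the factor applied to reads, a choice made after seeing the data, LBRKO raised 9 genes, against 49.7% of genes tested. Under that choice TKO raised Klf2, against 1.33% higher, and lowered Nanog (-0.59, limma adjusted p = 0.017), against 60.7% lower. QKO then raised Klf2, Tbx3, Esrrb and Tfcp2l1 (0.52, 0.015), against 16.2% higher, while Zfp42 no longer passed (-0.27, 0.25).

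Values by library show these 4 genes directly. Klf2 had spike-in signals of 2.15, 1.83 and 2.51 in WT and 9.26, 4.96 and 9.21 in QKO, and Tbx3 had 5.52, 5.68 and 7.75 in WT and 13.5, 8.10 and 14.1 in QKO. Neither pair of groups overlapped. Esrrb had 48.1, 61.9 and 61.3 in WT and 95.0, 63.8 and 88.4 in QKO, so that QKO replicate 2 stood just above the highest WT library. Zfp42 had 9.73, 12.5 and 12.6 in WT and 9.03, 5.32 and 8.05 in QKO, with every QKO library below every WT library. The deposited value of Zfp42 was thus lower in QKO than in WT cells while its relative value was higher, and the former call rests on how the factor was applied.

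**Figure D3:**
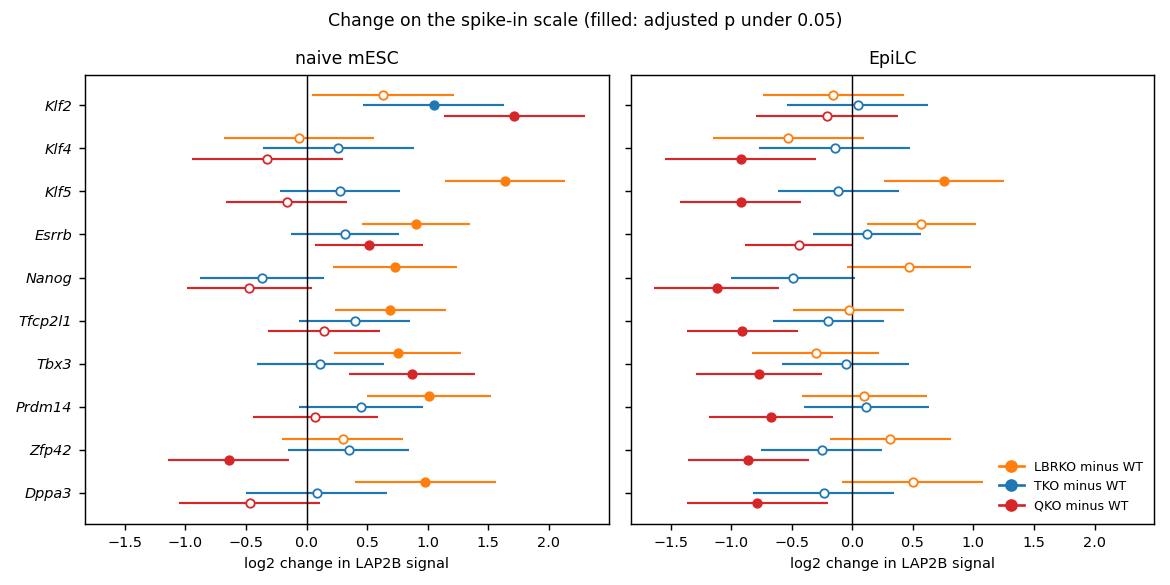
Log2 change in spike-in-scaled LAP2B signal against WT for each gene, mutant and stage, with bars for 95% intervals and filled points where the adjusted p was under 0.05. In naive QKO cells Klf2, Tbx3 and Esrrb are filled on the right and Zfp42 on the left.

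In EpiLC few of the 10 genes differed from WT on the relative scale. LBRKO raised Klf5 (0.72, adjusted p = 0.00028), Esrrb (0.54, 1.2e-05) and Nanog (0.43, 0.030), against 13.3% of genes tested. TKO raised Esrrb alone (0.39, 0.0025), against 8.68%, and QKO raised Esrrb (0.44, 0.00019) and Klf2 (0.63, 0.026), against 18.3%. Esrrb, with 26.4, 32.2 and 27.4 in WT, 40.4, 42.7 and 41.2 in the LBRKO libraries, 37.2, 37.7 and 37.5 in TKO, and 39.1, 38.0 and 39.2 in QKO, was the one gene to pass in all 3 EpiLC mutants. All of its mutant libraries lay above all of its WT libraries. Klf2 had 1.27, 1.70 and 1.61 in WT EpiLC and 2.66, 2.83 and 1.83 in QKO, and its QKO call was lost when WT replicate 1, QKO replicate 1 or QKO replicate 2 was left out. Scaling by the mean gene moved the share of calls that were higher from 46.6% to 63.0% in TKO (35.1% in edgeR) and from 50.7% to 62.2% in QKO EpiLC. The authors did not use LAP2B as a lamina marker in EpiLC, since its WT signal there lay both inside and outside regions at the lamina. These EpiLC values are given with that limit.

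On the spike-in scale 8 of the 10 genes fell in QKO EpiLC, against 55.5% of genes tested. The median over the 10 was -0.82, beside -0.75 for the median gene, and none of the 8 had passed on the relative scale. Nanog fell most (-1.12, adjusted p = 9.8e-05), followed by Klf4 and Klf5 (both -0.92), Tfcp2l1 (-0.91), Zfp42 (-0.86), Dppa3 (-0.79), Tbx3 (-0.77) and Prdm14 (-0.67). Klf2 (-0.21, 0.55) and Esrrb (-0.44, 0.085) did not pass. The count was 5 of 10 without WT replicate 3, and 1 of 10, against 27.8% of genes lower, when the yeast factor was applied to reads in place of the deposited density. Klf5 was the one gene past the threshold in LBRKO EpiLC (0.76, 0.037, with 5.54% of genes higher). Without any one of WT replicates 2 or 3 or the LBRKO libraries, none of the 10 was. The call was also lost with the replicate number as a block or with no filter on low values. More of the 10 passed with the yeast factor applied to reads, as given below. In TKO EpiLC none of the 10 passed in limma, against 9.42% of genes, and none had an unadjusted p under 0.05, although 1 passed without TKO replicate 1.

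The mutant effect on LAP2B signal differed between stages. The limit on LAP2B in EpiLC given above applies to every LAP2B comparison of the stages. On the relative scale the QKO effect was smaller in EpiLC than in naive cells for all 10 genes, against 21% of genes tested lower and 24.8% higher. The differences ran from -0.57 (Zfp42) and -0.67 (Dppa3) to -2.0 (Tbx3) and -2.28 (Klf2). The TKO effect was smaller in EpiLC for 6 genes (Klf2, Klf5, Esrrb, Tfcp2l1, Prdm14 and Zfp42), against 3.81% of genes, and the LBRKO effect for 4 (Klf5, Tfcp2l1, Tbx3 and Prdm14), against 9.55%. Klf4, Nanog and Dppa3 passed this test in QKO but not in LBRKO or TKO, which does not show that their effects in those mutants were equal at the 2 stages. With mean-gene scaling the share of calls that were higher moved from 51.7% to 30.8% for the LBRKO difference, from 60.3% to 15.8% for TKO (48.8% in edgeR and 35.8% in DESeq2) and from 54.2% to 44.2% for QKO (40.9% in DESeq2).

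WT naive cells and WT EpiLC were compared for each of the 3 targets. In LAP2B on the relative scale Klf2 (0.72, adjusted p = 0.013) and Esrrb (0.29, 0.014) rose, against 15.1% of genes tested higher and 17.1% lower, a share of the 10 near that of all genes, and the other 8 did not pass, from -0.29 (Nanog) to 0.37 (Tbx3). On the spike-in scale Klf2 alone passed (0.89, 0.029), against 10.4%. The relative count fell to 0 without naive WT replicate 2 or EpiLC WT replicate 2, and the spike-in count fell to 0 without naive WT replicate 1 or 2 or EpiLC WT replicate 1 or 3. Mean-gene scaling moved the share of calls that were higher from 47.0% to 75.8%.

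LMNB1 showed no passing change at any of the 10 genes, in limma on either scale or in edgeR or DESeq2 on recovered reads. In limma 13.4% of genes tested passed on the relative scale and 8.23% on the spike-in scale, and 1 and 3 of the 10 genes had an unadjusted p under 0.05. These shares were unstable, since with no filter on low values 708 and 0 genes passed in place of 9446 and 5790, and with the replicate number as a block 5965 and 172. Values ran from -0.49 (Dppa3) to 0.44 (Klf2) on the relative scale and from -0.21 (Dppa3) to 0.70 (Klf2) on the spike-in scale. Esrrb, the best measured, had relative LMNB1 signals of 17.2, 23.9 and 24.1 in naive and 28.4, 23.5 and 25.8 in EpiLC cells, so the groups overlapped. The spike-in count rose to 1 without naive replicate 3 and to 3 without EpiLC replicate 2. Mean-gene scaling moved the share of relative LMNB1 calls that were higher from 47.2% to 73.8%. LMNB1, LAP2B and IGG tables were normalised separately, and no level was tested between them.

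The IGG background also showed no passing change at the 10 genes by the same tools. In limma 0.49% of genes passed on the relative scale and 0% on the spike-in scale (24410 of 70382 had an unadjusted p under 0.05), and 2 of the 10 had an unadjusted p under 0.05 on each. On the spike-in scale all 10 were higher in EpiLC by 0.67 (Klf5) to 1.08 (Klf2), around the median gene's 0.92. IGG library medians were 0.913, 1.92 and 0.718 in EpiLC and 0.579, 0.411 and 0.622 in naive cells, so EpiLC replicate 2 weighed most. No gene passed, so the difference is not established. It stands beside every spike-in value that compares the stages.

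Levels per 1 kb bin place the 10 genes among all genes tested. The median percentile of the 10 in naive LAP2B was 49.3 ± 5.1 (SD, n = 3) in WT, 68.8 ± 5.2 in the LBRKO libraries, 90.5 ± 1.7 in TKO and 85.8 ± 1.1 in QKO. In EpiLC it was 58.1 ± 1.0, 60.4 ± 1.6, 66.8 ± 2.1 and 60.0 ± 1.5 in the same order. This order rests on the inferred division by bins: undivided, the naive medians were 72.8 in WT and 78.2 in LBRKO cells, 80.8 in TKO and 83.2 in QKO. In LMNB1 the median percentile was 49.6 ± 4.7 in naive and 44.9 ± 8.7 in EpiLC cells, and in IGG 74.5 ± 6.4 and 62.1 ± 5.3.

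Within the 10, Nanog had the highest percentile in naive WT LAP2B (80.2 ± 2.7) and Dppa3 by far the lowest (4.47 ± 0.90). Between them came Zfp42 (66.9 ± 9.7), Klf5 (59.6 ± 8.7), Klf2 (56.9 ± 18.3), Tfcp2l1 (47.8 ± 1.1), Prdm14 (44.4 ± 17.6), Klf4 (40.1 ± 19.9), Tbx3 (32.1 ± 13.3) and Esrrb (26.9 ± 4.1). From Zfp42 down to Esrrb each gene differed from the next by less than the larger of their SDs. In naive QKO cells Klf2 stood at 99.7 ± 0.14, Esrrb at 85.4 ± 0.42 and Tbx3 at 91.7 ± 2.0. In the naive IGG libraries, Klf2 stood at 99.7 ± 0.02, Tbx3 at 88.7 ± 3.1 and Klf4 at 84.2 ± 5.4, which are also the 3 genes richest in GC. Dppa3 was lowest there too (2.36 ± 1.3). Its signal was divided by 22 bins, the annotated span chr6:122586548-122607237, although its canonical transcript starts at 122603369. That annotation is a later GENCODE release than the authors named, and a span that differs between releases would misplace a gene. The part of annotated span in the low Dppa3 percentiles was not tested. IGG was profiled in WT cells only, and the part of background or GC content in the mutants' changes was not tested.

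**Figure D4:**
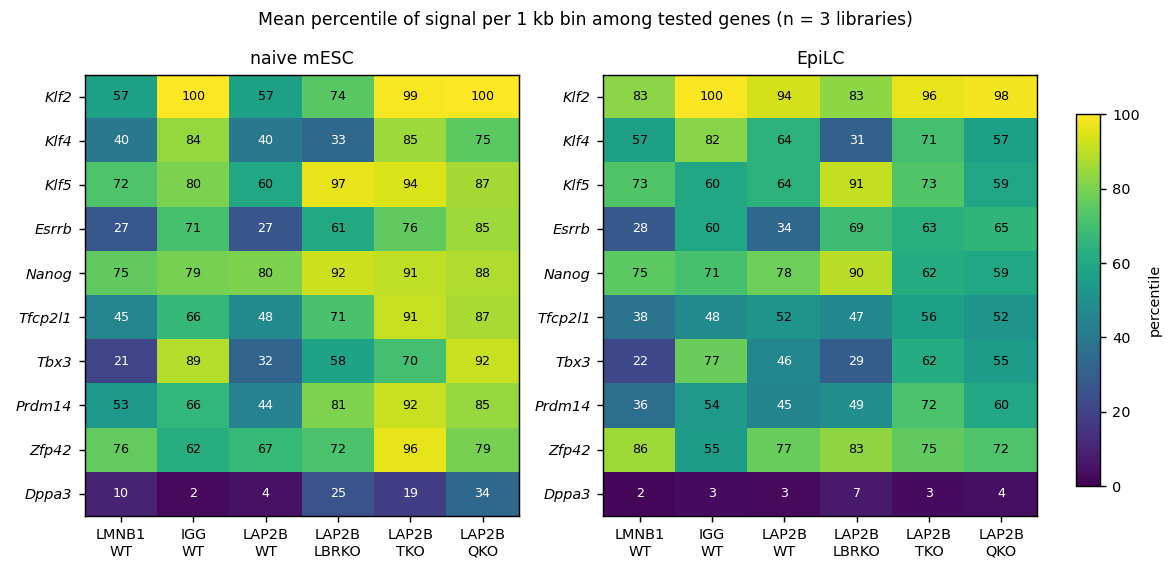
Percentile of each of the 10 genes among all genes tested (signal per 1 kb bin) in each group of libraries, for LAP2B, LMNB1 and IGG. Klf2 stands near the top in IGG and in QKO, and Dppa3 near the bottom in every WT group.

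Each gene was next set against the genes within 500 kb of it. The neighbours moved with some of the genes and not with others. In naive QKO cells the median relative change of the neighbours was -1.08 at Zfp42, -0.73 at Klf5, -0.27 at Nanog and at Dppa3, 0.03 at Tfcp2l1, 0.18 at Klf4, 0.21 at Prdm14, 0.52 at Tbx3, 0.77 at Klf2 and 1.14 at Esrrb. Of the 49 neighbours of Esrrb 45 rose and none fell, of the 66 of Klf2 38 rose and 7 fell, of the 27 of Tbx3 14 rose and none fell, and of the 25 neighbours of Zfp42 2 rose and 19 fell. Esrrb thus rose with its region, and Zfp42 rose within a region that fell.

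The excess of a gene over its neighbours, the log2 of its signal per bin minus their median, was higher in naive QKO than in WT for all 10 genes, with no overlap of libraries, as for 21.6% of 69776 genes. The change in excess was 2.13 at Zfp42, 2.09 at Klf2, 1.77 at Klf5, 1.51 at Tbx3, 1.39 at Tfcp2l1, 1.27 at Nanog, 1.09 at Dppa3, 1.04 at Prdm14, 0.68 at Klf4 and 0.60 at Esrrb. Zfp42 went from -0.83 (below its neighbours) in WT to 1.31 (above them) in QKO, and Dppa3 from -2.07 to -0.97. Dppa3 lay as far below its neighbours in naive WT IGG (-1.87) and LMNB1 (-2.02). In those IGG libraries the excess was 0.83 at Klf2, 0.68 at Tbx3, 0.46 at Klf4 and -0.40 at Zfp42. The remaining genes lay between 0.03 (Esrrb) and 0.33 (Klf5). The part of background or of annotated span in the excess was not tested. In TKO the excess was higher without overlap for 9 genes (not Klf4), as for 15.2% of genes. In LBRKO it was so for 6, as for 15.7%, led by Klf5 (1.12) and Zfp42 (1.10). Zfp42, which did not pass in LBRKO on its own scale, therefore separated from WT once set against its neighbours, whose median had fallen by 0.68.

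**Figure D5:**
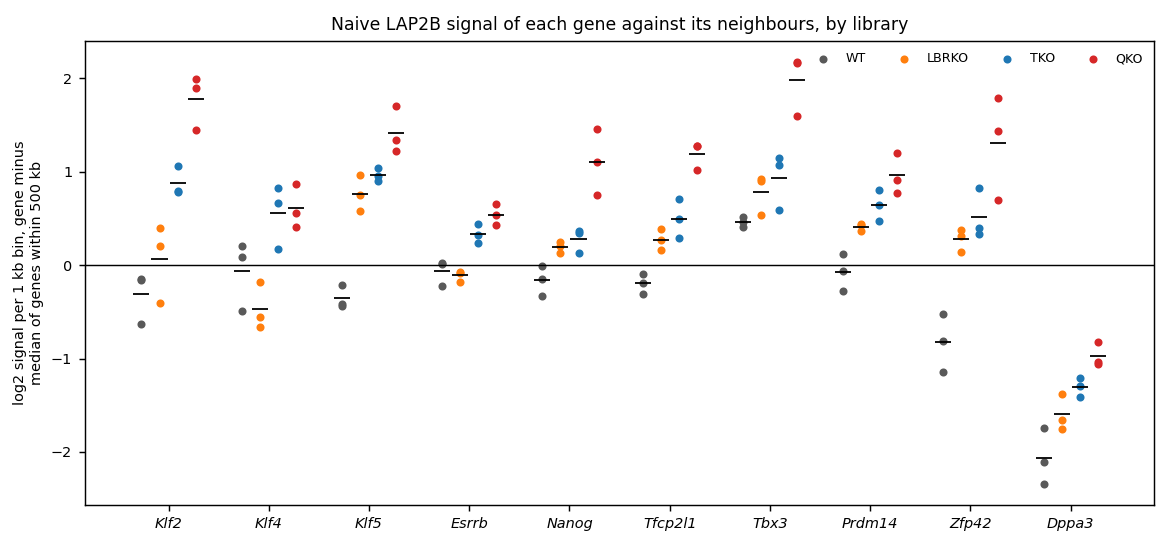
Excess of each gene over the genes within 500 kb (log2 signal per 1 kb bin, gene minus neighbours' median) in naive LAP2B libraries, by genotype. Zfp42 passes from below its neighbours in WT (mean -0.83) to above them in QKO (mean 1.31).

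On the relative scale most genes of 3 other pluripotency lists also rose in naive QKO cells, so the rise is not shown to be particular to the 10. Of 8 core pluripotency genes all 8 rose (median 2.34), led by Pou5f1 (2.91), Nacc1 (2.47) and Sall4 (2.38). Of 10 genes of the LIF, WNT and ERK inputs 8 rose and 1 fell (median 1.48), led by Socs3 (2.97), a STAT3 target, Map2k1 (2.76), which encodes a MEK kinase, and Stat3 (1.81). Of 16 other genes of the naive state 9 rose and 4 fell (median 0.53), led by Sox15 (3.04), Fgf4 (2.18) and Dppa5a (1.57). Of 11 formative epiblast genes, which belong to the state that follows, 8 rose and 2 fell (median 1.06), with Etv4 at 3.00, Dnmt3a at 1.58 and Fgf5 at -1.72. The shares over the whole table were 33.2% higher and 42.3% lower. The same lists on the spike-in scale gave 5 of 8 core genes higher and none lower, 3 of 10 inputs higher and 4 lower, 2 of 16 other naive genes higher and 8 lower, and 1 of 11 formative genes higher and 3 lower, with medians of 1.15, 0.24, -0.65 and -0.15, against 10.2% higher and 65.3% lower.

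After single losses the counts on the relative scale were as follows. In TKO 7 of the 8 core genes, 6 of the 10 input genes, 8 of the 16 other naive genes and 8 of the 11 formative genes rose, with medians of 0.84, 0.59, 0.49 and 0.83, and 1 input gene and 1 formative gene fell, against 21.8% of genes tested higher and 27.5% lower. TKO on the spike-in scale gave 2 core genes, no input or other naive gene and 1 formative gene higher, and 3 input, 3 other naive and 3 formative genes lower, against 2.43% higher and 47.4% lower. In LBRKO 6, 9, 8 and 9 rose on the relative scale, with medians of 0.53, 0.87, 0.38 and 0.84, and 1 formative gene fell, against 28.9% higher and 27.6% lower. The LBRKO counts on the spike-in scale were 5, 8, 8 and 9 higher and none lower, against 28.2% higher and 17.7% lower. On the relative scale, on priming of WT cells, 5 of the 8 core genes rose, among them Sox2 (1.23), Lin28a (0.87) and Pou5f1 (0.86), and 2 of the 16 other naive genes rose and 5 fell, with Tet2 at -1.07, where 15.1% of genes tested were higher and 17.1% lower. Of the input genes 4 rose and 3 fell, and of the formative genes 4 rose and none fell. In the spike-in values of the same comparison 4 core, 2 input, 1 other naive and 3 formative genes were higher, and 1 input gene and 1 other naive gene lower, against 10.4% higher and 1.74% lower.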

How the data were processed

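CUT&RUN libraries of LAP2B, LMNB1 and IGG were analysed from 3 gene tables. Per the authors' methods and processing notes, reads were aligned with Bowtie2 2.3.5.1 to mm39 and to sacCer3 for the spike-in, handled with SAMtools 1.10, and turned into 1 kb bins with deepTools. The authors deposited signal, that is RPKM times a yeast spike-in factor. The step from bins to genes is not given in the sources used here, and a sum over bins, not divided by length, was inferred from the values. Whole reads were recovered from the steps between values: 100% of values lay within 0.05 of a read.

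The 0.1 share of genes with the lowest mean relative value was left out. Tests used limma 3.58.1 (R 4.3.3) on log2(value + 0.1 of the table median) with empirical Bayes moderation and Benjamini-Hochberg adjustment, so a fold change understates that of low genes. The 24 LAP2B libraries entered 1 fit of 8 groups, and LMNB1 and IGG had their own fits. On recovered reads, edgeR 4.0.16 called 52355, 32422 and 38328 genes in naive QKO, TKO and LBRKO, where limma on the relative scale called 53183, 34732 and 39803; DESeq2 1.42.0 called 52344, 33284 and 39763. Scripts were tested on simulated data. All 36 pairs of replicates differed by more than counting noise (chi-square per degree of freedom from 3.37 to 12.6). Groups of 3 libraries allow no exact permutation p under 0.1, so single values carry no such test.

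All 10 genes were named by symbol; of other lists at most the 3 with the largest relative change past the threshold were named, and for each gene the 1 gene on another chromosome with the highest Pearson r. The genes and lists were chosen with earlier results of these data known. In those lists Tdgf1 and Hprt were matched under the newer symbols Cripto and Hprt1. Coordinates and sequence are from GRCm39 with GENCODE annotation, which placed 78131 of the 78202 genes. The release was later than the one the authors named, so gene spans may differ from theirs. Alternatives were the pseudocount, the filter, the scaling, the test, a replicate block and leaving out each library. The 2 H3K9me3 samples and the transposon tables were not analysed here.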

Additional observations from a re-analysis of the deposited data

Results flagged for a closer look

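Mutant effects on relative LAP2B signal (log2, mutant minus WT) that differed between naive cells and EpiLC by the limma interaction test are given here, each as the EpiLC effect minus the naive effect, so a negative value means a smaller rise or a larger fall in EpiLC. For QKO all 10 genes met this: Klf2 -2.28 (adjusted p = 9.0e-08), Tbx3 -2.0 (2.1e-09), Tfcp2l1 -1.41 (2.1e-10), Esrrb -1.32 (2.8e-11), Klf5 -1.12 (3.2e-05), Prdm14 -1.10 (3.0e-05), Nanog -1.01 (0.00010), Klf4 -0.94 (0.016), Dppa3 -0.67 (0.042) and Zfp42 -0.57 (0.012). For TKO the genes were Klf2 -1.34 (0.0052), Zfp42 -0.95 (0.00081), Tfcp2l1 -0.95 (6.3e-05), Klf5 -0.74 (0.023), Prdm14 -0.68 (0.033) and Esrrb -0.55 (0.0050). For LBRKO they were Tbx3 -0.90 (0.0055), Prdm14 -0.76 (0.0084), Klf5 -0.73 (0.013) and Tfcp2l1 -0.57 (0.0059). Klf5, Tfcp2l1 and Prdm14 were the genes that met it in all 3 mutants. The median over all genes tested was 0.20 for QKO, 0.11 for TKO and 0.04 for LBRKO. In QKO the median of the 49 neighbours of Esrrb was -0.78, and that of the 25 neighbours of Zfp42 was 0.90. Leaving out 1 library at a time left 8 to 10 genes for QKO, 4 to 6 for TKO and 3 to 5 for LBRKO. The authors' limit on LAP2B as a lamina marker in EpiLC applies to these differences too.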

How the results depend on the processing

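Over 6825 alternative values for single genes, 6667 kept their side of the threshold (126 of them, without a call, changed sign), 102 lost a call, 55 gained one and 1 reversed: Dppa3 in naive QKO against LBRKO, -0.08 as reported, became 0.70 (limma adjusted p = 0.0028) when libraries were divided by the median gene of the same chromosome, chromosome 6. Of 684 counts of genes called, 647 stayed within 1.5 times. The naive QKO, TKO and LBRKO counts on the relative scale stayed within 1.5 times under all alternatives run. On the spike-in scale, applying the yeast factor to reads (chosen after seeing the data) gave 2 genes in naive TKO in place of 1, 5 in EpiLC LBRKO in place of 1 and 1 in EpiLC QKO in place of 8. With no filter on low values EpiLC LBRKO gave 0 and the WT stage change 0, and a pseudocount of 1 of the median gave the WT stage change 0, each in place of 1. On the relative scale, EpiLC TKO gave 2 in place of 1 with mean-gene or same-chromosome scaling. EpiLC QKO and the WT stage change gave 1 in place of 2 with no filter, with same-chromosome scaling or per bin among genes of at least 5 bins (which leaves out Klf2), and the WT stage change gave 4 with mean-gene scaling. Leaving out 1 library at a time gave 4 to 8 genes in naive LBRKO, 0 to 2 in EpiLC LBRKO, 0 to 1 in EpiLC TKO, 5 to 9 in EpiLC QKO, 0 to 1 in the WT stage change and 0 to 3 in LMNB1 on the spike-in scale, and 1 to 2 in EpiLC QKO and 0 to 3 in the WT stage change on the relative scale. With the replicate number as a block EpiLC LBRKO on the spike-in scale gave 0 in place of 1, and no other count of the 10 moved by over 1.5 times. The labels give replicates only a number, and same-numbered libraries deviated together by r of -0.116 to 0.177 in LAP2B, -0.249 to 0.000745 in LMNB1 and 0.000855 to 0.0189 in IGG, so no pairing was taken. Without division by bins the median percentile of the 10 genes was 72.8, 78.2, 80.8 and 83.2 in naive WT, LBRKO, TKO and QKO, 71.2, 73.5, 73.4 and 70.5 in EpiLC, 73.9 and 70.4 in LMNB1 and 71.6 in EpiLC IGG, so that the naive genotypes lay closer together and QKO, not TKO, stood highest. With no filter it was 87.2 in naive QKO and 61.4, 63.9, 69.7 and 63.6 in EpiLC WT, LBRKO, TKO and QKO. Counts over all genes moved by over 1.5 times as follows. With the factor applied to reads they were 24170 in place of 6329 in EpiLC LBRKO, 2069 in place of 6630 in EpiLC TKO, 20992 in place of 39111 in EpiLC QKO and 13221 in place of 8548 in the WT stage change, and the share of calls that were higher went from 61.4% to 84.0% in naive LBRKO, from 61.6% to 95.9% in EpiLC LBRKO and from 1.07% to 11.6% in EpiLC TKO. With no filter they were 4264 in EpiLC TKO and 2925 in the WT stage change on the spike-in scale, and in LMNB1 0 in place of 5790 on the spike-in scale and 708 in place of 9446 on the relative scale (30.5% higher in place of 47.2%). The replicate block left 172 and 5965 LMNB1 calls on these scales (57.6% of the former higher in place of 97.0%). Per bin among genes of at least 5 bins, fewer genes being tested, they were 32823 in place of 53183 in naive QKO, 24846 in place of 37533 in QKO against LBRKO and 4789 in relative LMNB1, and the share of the TKO stage difference that was higher went from 60.3% to 44.0%. The relative IGG comparison gave 77 with a pseudocount of 0.01 of the median, 596 with 1, and 0 with no filter, same-chromosome scaling or per bin, and the spike-in one 1 in place of 0 with 0.01. It called 345 in limma, 511 in edgeR and 946 in DESeq2, of which 14.8%, 25.0% and 35.8% were higher on the relative scale (34.6% of limma calls with mean-gene scaling). The cause of these shifts was not tested. Of 210 changes in excess over neighbours 197 moved by less than the spread between replicates. Depth limits Klf2 and Klf4 most, with as few as 28 and 40 reads in a LAP2B library.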

Other observations

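Genes outside the pluripotency programme moved apart in naive QKO cells. All 5 housekeeping genes tested rose in relative LAP2B signal (median 2.27), led by Polr2a (2.43), which encodes the large subunit of RNA polymerase II, Gapdh (2.39) and Actb (2.27). All 5 neural genes fell (median -1.83), led on this scale by Dcc (-2.15), an axon guidance receptor, Gria2 (-2.02), a glutamate receptor subunit, and Cntnap2 (-1.83), an adhesion protein of neurons. In TKO 4 of the 5 housekeeping genes rose (median 0.78) and all 5 neural genes fell (-0.87), and in LBRKO all 5 rose (0.61) and all 5 fell (-1.19). Over all genes tested 33.2% rose and 42.3% fell in QKO, 21.8% and 27.5% in TKO, and 28.9% and 27.6% in LBRKO. On the spike-in scale 3 housekeeping genes rose and 2 fell in QKO (median 1.09), none passed in TKO in limma (0.17, and 0 at an unadjusted p under 0.05) and all 5 rose in LBRKO (0.79), while 5, 5 and 4 of the 5 neural genes fell. The shares over all genes on that scale were 10.2% higher and 65.3% lower in QKO, 2.43% and 47.4% in TKO, and 28.2% and 17.7% in LBRKO.

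The gene on another chromosome with the pattern most like each of the 10 over the 24 LAP2B libraries (relative log2 values, which share depth, scaling and genotype) was Gm38102 for Klf2 (Pearson r = 0.972), Bcl3 for Klf4 (0.866), Gm43191 for Klf5 (0.952), Hoxc5 for Esrrb (0.968), Tnfrsf8 for Nanog (0.954), Adrb3 for Tfcp2l1 (0.949), Ror2 for Tbx3 (0.964), Dab2ip for Prdm14 (0.944), Fn1 for Zfp42 (0.890) and Atp1b1 for Dppa3 (0.910). These are descriptions over the searched table, the highest of many values, with no test.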
